A study of Mus musculus with 12 samples.

Results

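The axon guidance ligands and receptors examined here were 63 protein-coding autosomal genes out of 20807 in the GENCODE annotation of the mouse genome. The rule that chose them reads only gene symbols and uses no measured value, but it was set with earlier results of these data known. They comprised 20 semaphorins (Sema), 7 plexins (Plxn), 14 Eph receptors (Eph), 7 ephrins (Efn), 3 Slits, 4 Robo receptors, 4 Unc5 receptors and 4 netrins (Ntn). The semaphorins, ephrins, Slits and netrins were counted as ligands (34 genes) and the other families as receptors (29 genes). For each gene it was asked whether a site of trimethylated lysine 27 of histone H3 (H3K27me3) lay within 1 kb of a transcription start site (TSS), and how much of the gene lay inside such sites.

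Guidance cues steer growing axons, migrating cells and sprouting vessels. Semaphorins act through plexins, in part with neuropilins as co-receptors, ephrins through Eph receptor tyrosine kinases, Slits through Robo receptors, and netrins through Dcc and the Unc5 receptors. H3K27me3 is placed by Polycomb repressive complex 2, mostly at developmental genes that a cell type does not use, and in mammals the complex is known to favour CpG islands, stretches of DNA rich in the dinucleotide CG.

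The sites came from immortalized mouse embryo fibroblasts (iMEF cells) with floxed Ash2l alleles and a Cre-ER recombinase. In all groups, untreated cells included, exon 4 of the endogenous Ash2l alleles was deleted, and the cells lived on human ASH2L that was fused to an FKBP domain and delivered by a lentivirus. ASH2L belongs to the KMT2 methyltransferases of histone H3 lysine 4, and dTAG leads to degradation of the fusion protein. Chromatin immunoprecipitation followed by sequencing (ChIP-seq) of H3K27me3 gave 8 libraries, with 2 for each of untreated cells, 16 h, 24 h and 48 h of dTAG. Beside these stood 4 input libraries, 2 untreated and 2 from 48 h. The study names a single clone of these cells, NG3, for its H3K27me3 experiments. The data used were 1 list of 101389 site positions pooled over all samples, with no value for any library. The study states a planned minimum of reads and that libraries were brought to the lowest coverage, but the depth reached by each library is unknown here, no site could be compared between untreated and dTAG-treated cells, and no replicate error or p-value is given. All shares are descriptions of this list.

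Promoter sequences show what the sites were set against. They are taken from a table of RefSeq promoters (GRCm38.p6), to which 54 of the 63 genes were matched by symbol, chromosome and strand, and are the bases upstream of the start, 5′ to 3′ on the strand of the gene, with each CG in capitals. For each gene the promoter nearest to its most upstream annotated start was taken, with no limit on that distance. CG reads the same on both strands. Over 250 upstream bases the median number of CG was 16.5 in the 54 guidance promoters and 11.0 in 15686 promoters of all genes. At least 10 CG were present in 75.9% of the guidance promoters and in 53.5% of all promoters.

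Epha8 (chr4:136956817-136957066, minus strand), Unc5a (chr13:54949161-54949410, plus strand) and Robo4 (chr9:37401722-37401896, plus strand) are shown because each gene lay almost wholly inside H3K27me3 sites although their base composition differs.
Epha8: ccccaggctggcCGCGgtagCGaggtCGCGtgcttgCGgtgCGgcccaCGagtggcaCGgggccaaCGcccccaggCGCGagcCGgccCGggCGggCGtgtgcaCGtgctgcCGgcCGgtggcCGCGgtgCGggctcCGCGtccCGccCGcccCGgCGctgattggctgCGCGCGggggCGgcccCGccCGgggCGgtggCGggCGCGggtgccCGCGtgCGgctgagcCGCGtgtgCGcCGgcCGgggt
Unc5a: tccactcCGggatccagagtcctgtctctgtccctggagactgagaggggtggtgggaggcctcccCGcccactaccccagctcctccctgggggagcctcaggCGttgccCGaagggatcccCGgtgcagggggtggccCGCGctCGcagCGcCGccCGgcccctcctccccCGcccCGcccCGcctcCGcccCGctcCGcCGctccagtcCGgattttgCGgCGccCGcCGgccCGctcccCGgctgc
Robo4: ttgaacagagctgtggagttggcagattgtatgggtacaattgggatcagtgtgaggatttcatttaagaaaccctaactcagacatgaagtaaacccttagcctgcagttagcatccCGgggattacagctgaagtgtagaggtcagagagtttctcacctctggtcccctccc

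Epha8 held 46 CG and Unc5a 25 in 250 bases, while Robo4 held 2, which 15.0% of all promoters fell short of. The Robo4 sequence is printed only up to its most upstream annotated start, 175 bases with 1 CG. All printed bases of these 3 promoters lay inside a site.

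Epha7 (chr4:28812881-28813130, plus strand) had a small site that began 319 bp into the gene, and Efna5 (chr17:62881318-62881567, minus strand) and Epha3 (chr16:63864176-63864425, minus strand) were among the genes farthest from any site.
Epha7: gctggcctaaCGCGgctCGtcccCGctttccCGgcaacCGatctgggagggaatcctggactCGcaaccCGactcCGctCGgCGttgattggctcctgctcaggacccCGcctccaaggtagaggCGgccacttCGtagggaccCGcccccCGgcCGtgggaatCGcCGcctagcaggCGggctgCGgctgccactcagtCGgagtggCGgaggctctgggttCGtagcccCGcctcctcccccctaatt
Efna5: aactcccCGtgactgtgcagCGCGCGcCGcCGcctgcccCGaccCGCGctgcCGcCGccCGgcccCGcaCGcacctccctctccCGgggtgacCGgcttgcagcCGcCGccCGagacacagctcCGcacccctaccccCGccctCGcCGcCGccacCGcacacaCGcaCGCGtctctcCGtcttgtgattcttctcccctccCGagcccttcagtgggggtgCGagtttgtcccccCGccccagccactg
Epha3: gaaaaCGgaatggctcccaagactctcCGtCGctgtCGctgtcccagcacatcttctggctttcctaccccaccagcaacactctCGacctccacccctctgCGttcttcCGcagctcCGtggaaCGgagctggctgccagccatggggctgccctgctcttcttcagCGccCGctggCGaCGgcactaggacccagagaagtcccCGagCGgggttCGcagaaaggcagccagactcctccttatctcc

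Epha7 held 25 CG, Efna5 32 and Epha3 16 in 250 bases, and no base of these 3 promoters lay inside a site. The Efna5 promoter had more CG than 94.1% of all promoters. The median number of CG was 16.5 in the 32 promoters of guidance genes with a site at a TSS and 17 in the 22 without, and at least 10 CG were present in 81.2% and 68.2% of them. In the 8 matched promoters of genes with at least 50% cover the median was 19 and the share 87.5%. Plxna4 and Slit1, which also had such cover, had no matched promoter.

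A site within 1 kb of a TSS was present in 38 of the 63 guidance genes (60.3%), against 26.9% of all 20807 genes. When the centre of the site was required within 1 kb, it was 24 (38.1%), against 18.3% of all genes. When only the most upstream TSS of each gene was considered, the guidance genes kept the same number, 38, while the share of all genes was 24.2%. At least 10% of the gene lay inside sites in 20 guidance genes (31.7%), against 20.4% of all genes, and at least 50% in 10 guidance genes (15.9%), against 10.2% of all genes. No base lay inside a site in 27 guidance genes (42.9%) and in 69.6% of all genes. The genes nearest to the 1 kb limit were Ephb4 (763 bp) and Ephb2 (814 bp) inside it and Sema3g (1.12 kb), Plxna2 (1.38 kb) and Ephb3 (1.54 kb) outside it. The median cover was 0.785% for guidance genes and 0 for all genes, but it was 0 for guidance genes too with only sites of at least 1000 bp, 0.177% without the 1 kb around each TSS and 1.78% over exons.

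**Figure D1:**
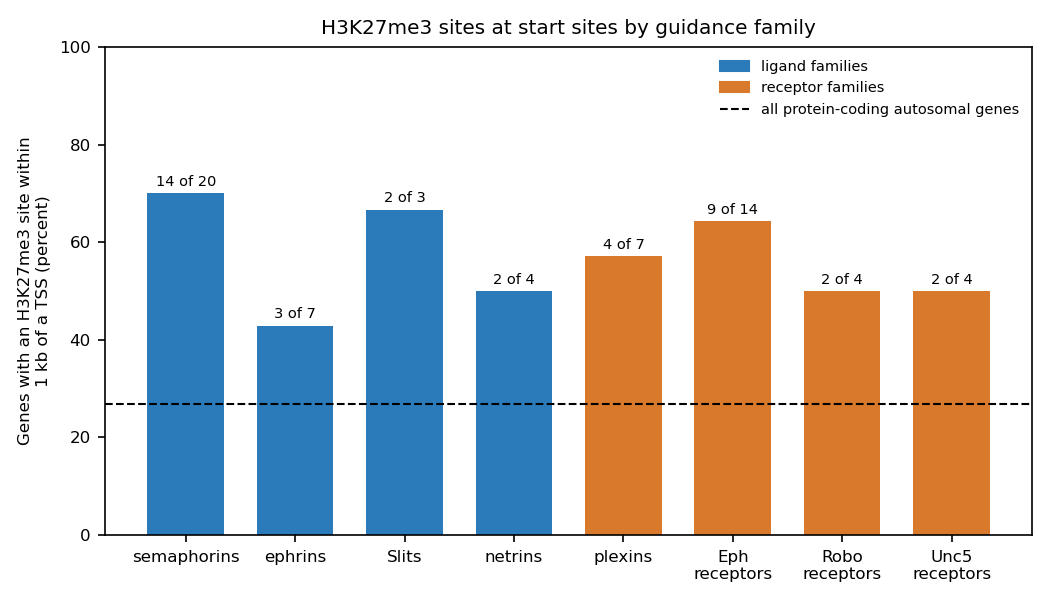
Share of genes in each guidance family with an H3K27me3 site within 1 kb of a TSS (vertical axis, percent), with the number of genes above each bar. Blue bars are ligand families, orange bars receptor families, and the dashed line marks the 26.9% of all protein-coding autosomal genes, which every family exceeded.

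Ligands and receptors had nearly the same share. A site lay at a TSS in 21 of 34 ligands (61.8%) and in 17 of 29 receptors (58.6%). Counting sites by their centre, it was 16 ligands and 8 receptors, and with a window of 3 kb 22 ligands and 19 receptors, where the order of the shares turned. By family the share ran from 3 of 7 ephrins (42.9%) to 14 of 20 semaphorins (70.0%), with 9 of 14 Eph receptors (64.3%), 4 of 7 plexins (57.1%), 2 of 3 Slits, and 2 of 4 genes each in the Robo, Unc5 and netrin families. Families of 3 or 4 genes change their share by a large step with each gene, so the order of the families is a description only. It changed when sites were counted by their centre, where 10 semaphorins, 3 ephrins, 3 plexins and 3 of 14 Eph receptors had one and the Eph receptors came last. The Eph receptors lost there included Epha8, Epha10 and Ephb1, whose widest sites at a TSS had 54070, 32397 and 10275 bp. The others lost were Epha5, Ephb2 and Ephb4, with 2845, 2481 and 874 bp.

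Within the semaphorins the share differed by class of the protein, a division described here with its values known. Among the class 3 semaphorins, which are secreted and signal through neuropilins and plexins, 2 of 7 genes had a site at a TSS (28.6%, near the 26.9% of all genes), Sema3d and Sema3f. Sema3g lay just outside the limit, with a site at 1.12 kb and 49.4% cover, and was counted with a window of 3 kb. Among the mostly membrane-bound classes 4 to 7 it was 12 of 13 (92.3%), with Sema4b as the exception, 52.3 kb from the nearest site. The classes also differed in base composition: the median GC content of the gene was 37.5% in class 3 and 50.5% in classes 4 to 7. A CpG island lay at a TSS of 4 of the 7 and 12 of the 13 genes. The part of GC content in this difference was not tested.

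Among the semaphorins with a site, Sema5b and Sema6b were covered over most of their length, by 79.9% and 78.6%. Sema5b, a transmembrane protein with thrombospondin repeats, carried 14 sites over 124 kb, and its widest (28396 bp) reached from 12.5 kb upstream to 15.9 kb downstream of the most upstream TSS. Sema6b, a transmembrane ligand of class A plexins, was covered by 3 sites. That at its start, of 26886 bp, ran from 21.5 kb upstream to 5.37 kb into the gene. It also lay within 1 kb of a TSS of the neighbouring gene Tnfaip8l1. Those of 2468 and 10720 bp lay farther downstream, the latter within 1 kb of TSSs of Plin5 and Lrg1. The site at the start of Sema6b was the only site at a start site of a guidance gene that also lay at the TSS of another protein-coding gene. Cover was 30.6% in Sema4a, 17.1% in Sema4g, 16.2% in Sema6c and 12.6% in Sema7a, the GPI-anchored semaphorin. The 17 annotated start sites of Sema4a included 14 with a site within 1 kb, and these were 6 separate sites of 523 to 2442 bp. The others with a site (Sema3d, Sema3f, Sema4c, Sema4d, Sema4f, Sema5a, Sema6a and Sema6d) were covered by 0 to 6.71%.

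In the other ligand families few genes were broadly covered. Of the ephrins, Efna3 was covered by 58.1% from a single site of 7009 bp that spanned its start, Efna2 by 31.9% and Efna1 by 9.88%. These are GPI-anchored ephrins of class A, of which 3 of 5 had a site at a TSS, whereas neither of the transmembrane class B ephrins, Efnb2 and Efnb3, had one. Slit1 was covered by 71.2% with 24 sites, among them one of 14717 bp at its start and one of 15927 bp within the gene. Slit3 had a site of 2044 bp at its start and cover of 3.49%, and Slit2 had no site within 64.6 kb of a TSS. Ntn1, the secreted netrin that attracts commissural axons, carried a site of 10464 bp over its start and cover of 10.5%. Ntn3 had a site of 749 bp ending 467 bp upstream of its start. Its 15.9% cover came from a separate site 2530 to 3434 bp downstream of the start, which lay within 1 kb of a TSS of Tbc1d24. Ntn4 and Ntn5 had none.

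**Figure D2:**
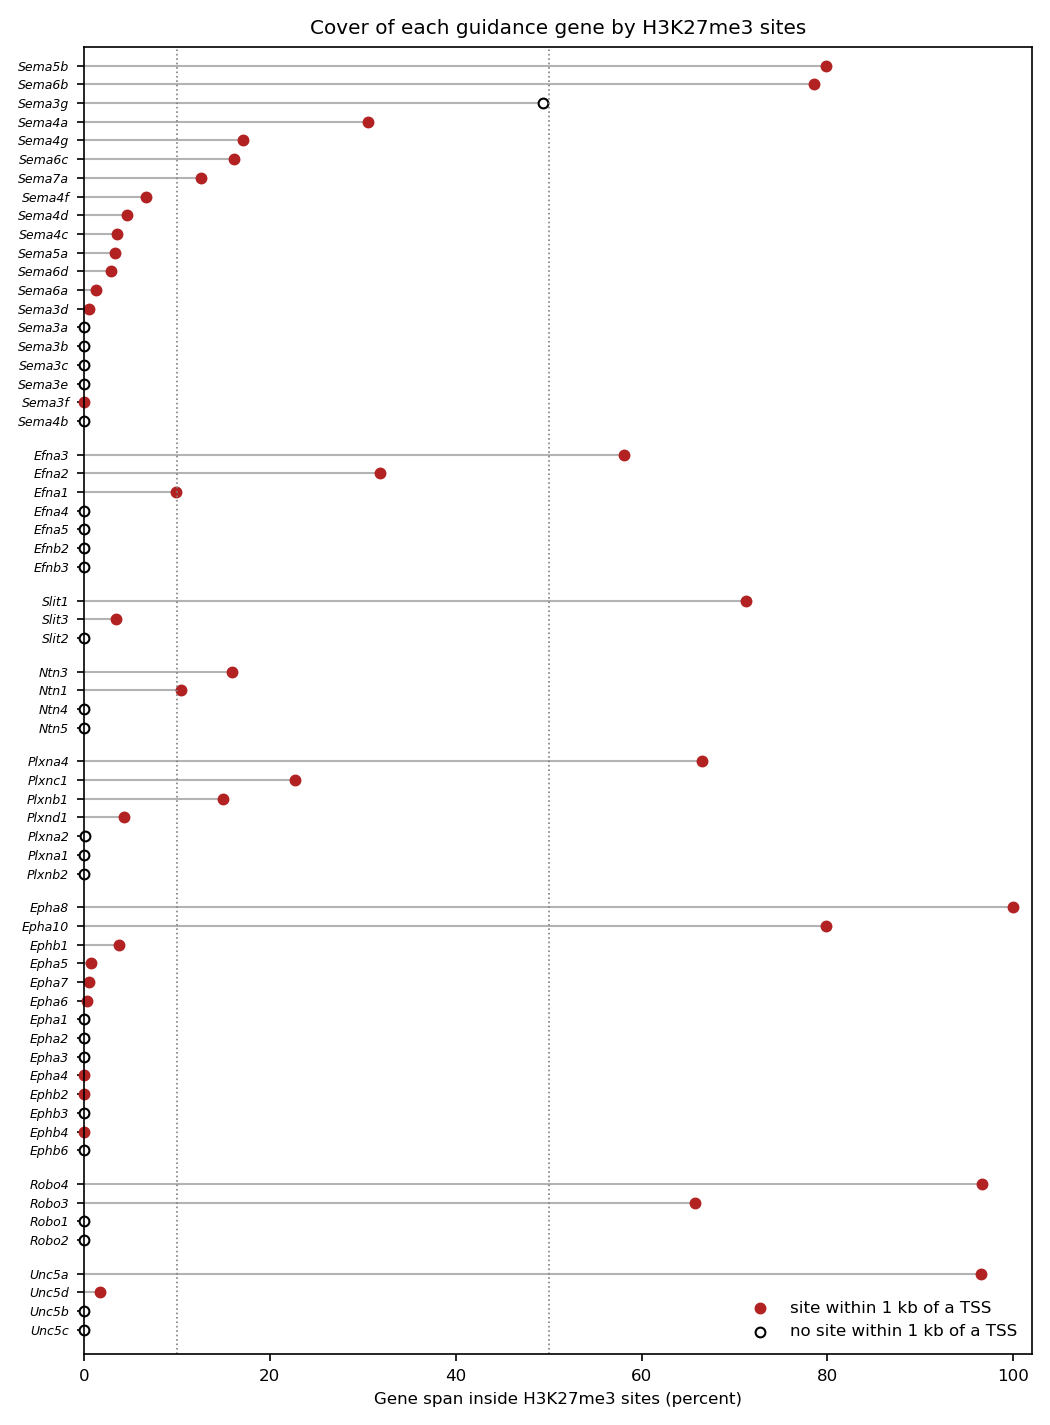
Percentage of each guidance gene that lay inside H3K27me3 sites (horizontal axis), 1 gene per line, grouped by family with ligands above receptors. Filled points stand for genes with a site at a TSS and open points for the others, and dotted lines mark 10% and 50%, which 20 and 10 of the 63 genes reached.

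Among the receptors the broadest cover was that of Epha8. A single site of 54070 bp (chromosome 4, 136924166 to 136978235, mm10) held the whole gene and reached 21.4 kb upstream of its start. Epha10, whose kinase domain is known to be inactive, was covered by 79.8% under a site of 32397 bp. The other Eph receptors with a site at a TSS (Epha4, Epha5, Epha6, Epha7, Ephb1, Ephb2 and Ephb4) were covered by at most 3.80%, in Ephb1, so that Eph receptors with a site had either most of the gene covered or little of it. Epha1, Epha2, Epha3, Ephb3 and Ephb6 had no site at a TSS, at distances of 1.54 kb in Ephb3 to 1241 kb in Epha3. By class, 6 of 9 Epha genes and 3 of 5 Ephb genes had a site.

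Of the plexins, Plxna4, a receptor for class 3 and class 6 semaphorins, was covered by 66.5% in 123 sites over 444 kb, the widest of 23590 bp at its start. Plxnc1 was covered by 22.7% in 31 sites and Plxnb1 by 15.0% in 3. Plxnd1 carried 1 site of 1727 bp that began 279 bp after its start, with cover of 4.30%. Plxna1, Plxna2 and Plxnb2 had no site at a TSS, the nearest lying 1.38 kb from a TSS in Plxna2, 6.08 kb in Plxnb2 and 29.7 kb in Plxna1.

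The Robo family was divided between 2 genes that were largely covered and 2 with no site, and the Unc5 family held 1 largely covered gene, 1 with a site at its start and little cover, and 2 with no site. Robo4, known for its expression in endothelium, was covered by 96.6% under a site of 18346 bp, and Robo3, which governs midline crossing of commissural axons, by 65.8% in 5 sites. Robo1 and Robo2 had no site within 277 kb and 1181 kb of a TSS. Unc5a was covered by 96.5%, mostly under sites of 29432 and 32879 bp. Another site, of 14765 bp, touched only its end and was centred outside the gene, within 1 kb of a TSS of Hk3. By contrast, Unc5d carried a site of 5539 bp at its start with cover of 1.78%. Unc5b had no site within 5.53 kb of a TSS and Unc5c none within 402 kb.

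Known ligand and receptor partners showed different combinations. Both partners had a site at a TSS for Sema4d and its receptor Plxnb1, and for Sema7a and its receptor Plxnc1. Sema3e had none within 103 kb while its receptor Plxnd1 had a site. Slit2 and both of the receptors it is best known to bind, Robo1 and Robo2, had none. These pairs were chosen for their known binding after their values were seen.

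With a site at a TSS, 10 of the 63 genes had cover of at least 50%, 9 cover of 10 to 50%, and 19 cover under 10%. In all genes these classes held 9.99%, 8.62% and 8.31%. The share of guidance genes was 15.9%, 14.3% and 30.2%, so that it lay furthest above all genes in the last class. Cover is a percentage of gene length, and the guidance genes were longer, with a median of 46.3 kb against 17.6 kb. Some long genes of the last class held many sites, 27 in Sema6d and 21 in Slit3. The part of gene length in these classes was not tested. Sema3g and Plxna2 had sites in the gene but none within 1 kb of a TSS. In Sema3g, whose nearest site began 1.12 kb from its single TSS, 4 sites covered 49.4% of the gene. The remaining 23 genes (36.5%, against 68.1% of all genes) had neither.

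**Figure D3:**
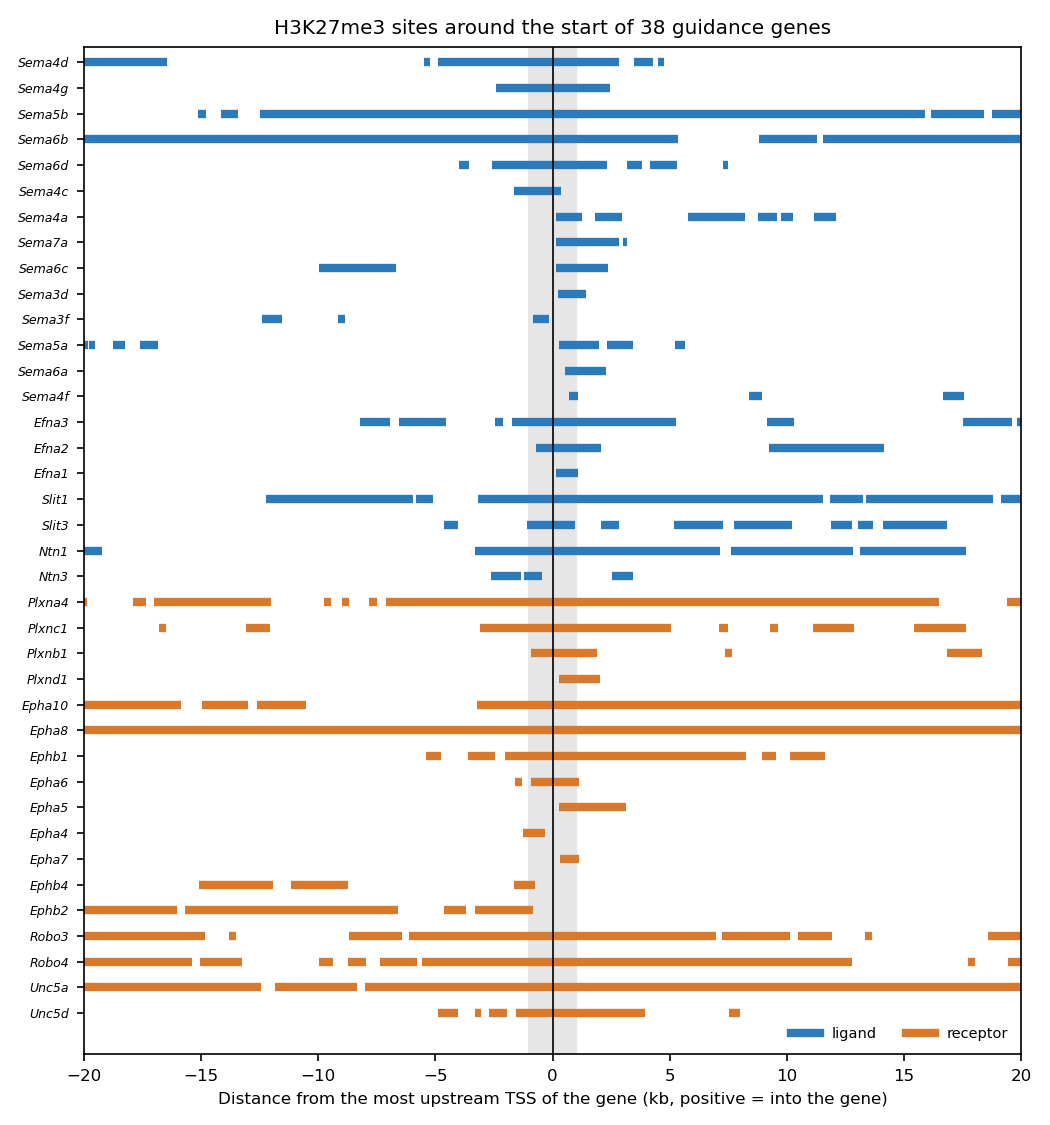
H3K27me3 sites within 20 kb of the most upstream TSS of the 38 guidance genes with a site at a TSS (horizontal axis, distance in kb, positive into the gene), 1 gene per line, blue for ligands and orange for receptors. The grey band is the 1 kb window; 22 genes have the start inside a site, 11 have it in the window on the downstream side only and 5 on the upstream side only.

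There were 59 sites at start sites of guidance genes, with widths of 200 to 54070 bp. Their median width was 2201 bp, against 2588 bp for the 8028 sites at start sites of any gene and 687 bp for all 96090 autosomal sites. A width of at least 10 kb was found in 13 of the 59 (22%), against 14.6% of the sites at start sites of any gene, and 6 were shorter than 500 bp. None was shared by 2 guidance genes. The centre of 39 of the 59 lay in an intron, of 6 in a coding exon, of 4 in an untranslated exon and of 10 outside the gene. Of the 343 annotated TSSs of the 63 genes, 142 had a site within 1 kb and 76 lay inside a site. At least 1 TSS lay inside a site in 26 genes (41.3%), against 21.5% of all genes. In 15 genes every annotated TSS had a site within 1 kb, and in 23 some had it and others did not. The positions of the site centres, the counts of TSSs and these last counts of genes were not set beside those of all genes. They are therefore not read as particular to the guidance genes.

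In many of these genes the site stood beside the start and did not cover it. The most upstream TSS lay inside a site in 22 of the 38 genes (57.9%), against 75.6% of the 5035 genes of the whole annotation with a site there. In 11 genes (28.9%, against 11.5% of all such genes) the site lay only downstream, and these were Efna1, Epha5, Epha7, Plxnd1, Sema3d, Sema4a, Sema4f, Sema5a, Sema6a, Sema6c and Sema7a. In 5 genes (13.2%, against 8.88%) it lay only upstream, in Epha4, Ephb2, Ephb4, Ntn3 and Sema3f. For example, the Epha5 site ran from 272 to 3116 bp downstream, that of Sema5a from 292 to 1965 bp, and that of Epha4 from -1249 to -306 bp, on the upstream side. Ligands had the site only downstream in 8 of 21 genes and receptors in 3 of 17.

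**Figure D4:**
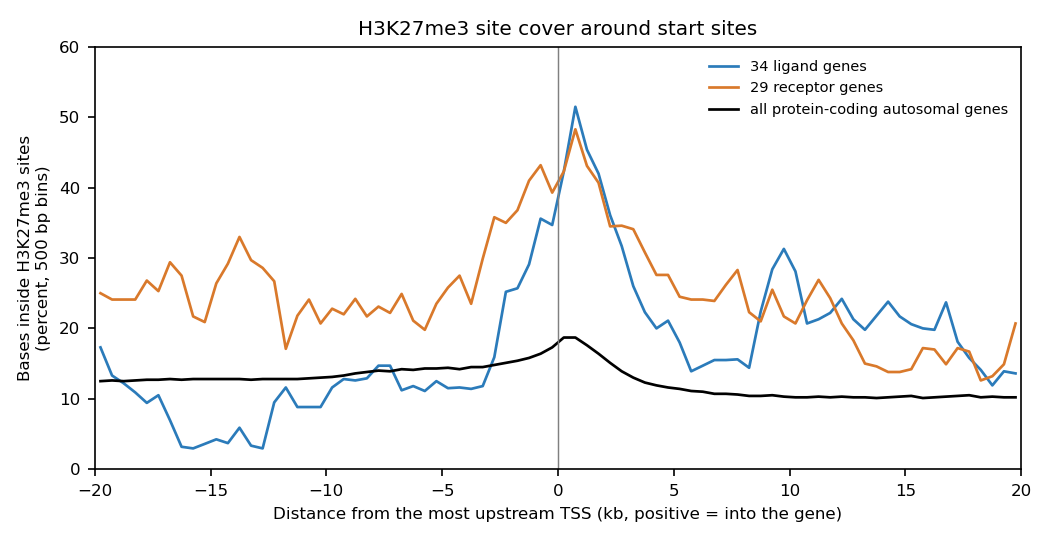
Percentage of bases inside H3K27me3 sites in bins of 500 bp (vertical axis) against the distance from the most upstream TSS (horizontal axis, kb, positive into the gene), for ligand genes (blue), receptor genes (orange) and all genes (black). Both guidance curves peak between 500 and 1000 bp downstream, at 51.5% and 48.3%, and all genes have 18.7% in both bins from 0 to 1000 bp.

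Average cover was highest just after the start. Over the 63 genes it reached 50.0% of bases between 500 and 1000 bp downstream and fell to 36.8% in the 500 bp before the start. Over all genes it was 18.7% both from 0 to 500 and from 500 to 1000 bp downstream and 17.3% in the 500 bp before the start. Mean cover over 20 kb upstream was 26.7% in receptor genes, 12.4% in ligand genes and 13.6% in all genes. These are means without a spread, and single receptor genes weigh on them. The whole 20 kb upstream of Epha8 lay inside a site. Unc5b and Ephb3, with no site at a TSS, also had sites in this range. Downstream the mean cover was 23.9%, 23.1% and 11.5%.

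Neighbouring guidance genes were covered to different extents. Robo3 and Robo4 lie 553 bp apart on chromosome 9, and 77.7% of the stretch they occupy lay inside 6 sites although no base of the gap between them did. Epha8 and Ephb2 lie 93.4 kb apart on chromosome 4, and 93.5% of the gap between them lay inside sites, while no base of Ephb2 did. Its nearest site ended 814 bp before its start. Efna1, Efna3 and Efna4 lie together on chromosome 3 in 66.3 kb, of which 24.4% lay inside sites, and here Efna3 was broadly covered, Efna1 had a site of 930 bp just after its start and Efna4 had none within 6.86 kb. Sema3b and Sema3f lie together on chromosome 9, and Sema3b had no site within 36.0 kb.

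The 25 guidance genes with no site at a TSS fell far from and near to sites. In 8 of the 63 genes (12.7%, against 16.8% of all genes) every annotated TSS lay more than 100 kb from any site. Counted from the nearest TSS, they were Efna5 (1587 kb), Epha3 (1241 kb), Robo2 (1181 kb), Sema3a (741 kb), Unc5c (402 kb), Robo1 (277 kb), Sema3c (167 kb) and Sema3e (103 kb). These are long genes, of 156 to 738 kb, and they lie in stretches without any site. Robo1 and Robo2 shared a stretch of 3.56 Mb on chromosome 16, Sema3a and Sema3e one of 1.95 Mb on chromosome 5, and Efna5 lay in one of 5.54 Mb on chromosome 17. In the 1 Mb around their starts these 8 genes had 0 to 8 sites, with a median of 0. Few sites nearby follow in part from the distance by which these genes were picked, and the 3498 genes of the whole annotation that lay as far had a median of 7. In the other 17 genes without a site at a TSS, the nearest site lay 1.12 to 84.9 kb from a TSS. They had a median of 59.0 sites in the 1 Mb around the start.

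**Figure D5:**
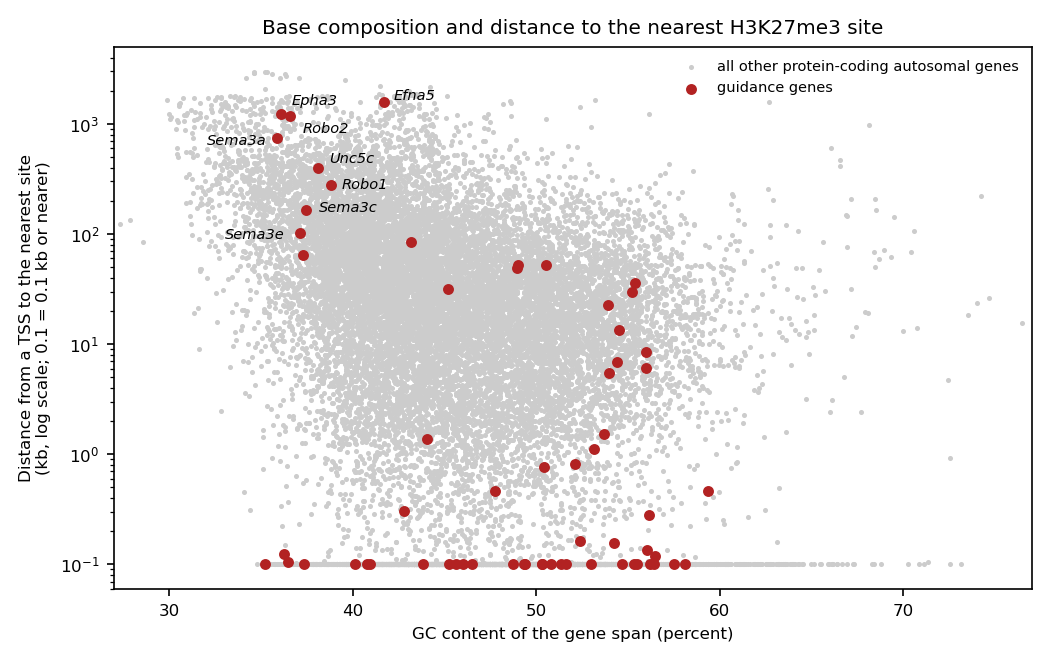
GC content of each gene (horizontal axis, percent) against the distance from its nearest TSS to the nearest H3K27me3 site (vertical axis, kb, log scale, with distances of 0.1 kb or less drawn at 0.1), guidance genes in red and all others in grey. The 8 named genes, with every TSS more than 100 kb from a site, have a GC content of 35.9 to 41.7%.

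The 8 distant genes were poor in G and C. Their GC content was 35.9 to 41.7% with a median of 37.3%, while the 38 guidance genes with a site at a TSS had a median of 50.4% and all genes one of 45.4%. All genes with every TSS more than 100 kb from a site had a median of 40.6%. Low GC content did not go with a lack of sites in every case, since Epha5 (35.2%), Epha7 (36.3%), Sema3d (36.5%) and Epha6 (37.4%) had a site at a TSS. When all genes were divided into 5 equal groups by GC content, the share with a site was 11.2% in the group of lowest and 36.1% in that of highest GC content. The guidance genes had 5 of 13 (38.5%) in the lowest and 17 of 27 (63.0%) in the highest, and in each of the 5 groups their share was above that of all genes. The part of GC content in these shares was not tested.

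The guidance genes were also longer than most, with a median of 46.3 kb against 17.6 kb, and had more annotated start sites, with a median of 5 against 3. With fewer than 3 start sites, 5 of 12 guidance genes (41.7%) had a site at a TSS, against 28.0% of all genes. From 3 to below 7 it was 21 of 33 (63.6%) against 28.1%, and with at least 7 it was 12 of 18 (66.7%) against 22.6%. Within genes shorter than 20 kb the share with a site at a TSS was 10 of 18 (55.6%) against 23.8% of all genes, and from 20 to 100 kb it was 10 of 16 (62.5%) against 26.8%. In genes of at least 100 kb it was 18 of 29 (62.1%) against 42.0%. Cover of at least 10% was reached by 50.0% of the guidance genes shorter than 20 kb, against 22.1% of all genes of that length. From 20 to 100 kb it was 37.5% against 19.6%, and in genes of at least 100 kb 17.2% against 15.1%. The share with a site at a TSS was thus above that of all genes in each group of length. The share with cover of at least 10% was above that of all genes below 100 kb. In genes of at least 100 kb it was near that of all genes.

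CpG islands were present within 1 kb of a TSS in 56 of the 63 genes (88.9%), against 60.4% of all genes. Among the 56 guidance genes with an island 36 had a site (64.3%), against 26.5% of all genes with an island, and 23 when sites were counted by their centre. Of the 7 without an island 2 had a site, Robo4 and Sema4a, against 27.6% of all genes without an island. In all genes the share was therefore nearly the same with and without an island. The 20 guidance genes with an island and no site included Efna5, whose promoter is printed above.

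Other genes of the same pathways were listed apart from the 63. Of 20 co-receptors and other cues 11 (55.0%) had a site at a TSS, among them Dscam, a netrin receptor, under a site of 6189 bp, Draxin, a secreted repellent, under 15748 bp, and Lingo1, a Nogo receptor component, under 41766 bp. The neuropilins Nrp1 and Nrp2, which hold class 3 semaphorins, and the netrin receptor Neo1 had none. Of 25 cytoplasmic transducers, the proteins that carry the signal from the receptor to the cytoskeleton, 6 (24.0%) had a site at a TSS, close to the 26.9% of all genes. These were Ablim1, Crmp1, Dpysl5, Srgap1, Fyn and Ngef, and the sites of Srgap1 and Fyn were only 251 and 200 bp wide. Rac1, Rhoa and Cdc42, the small GTPases most guidance receptors act on, had none.

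Marker genes were used to check the labelled cell type. None of 10 fibroblast markers, Col1a1, Vim and Twist1 among them, had a site at a TSS, while 7 of 9 neuron markers and 3 of 6 endothelium markers had one, against 26.9% of all genes. A neuron marker on the X chromosome, Syp, was left out of the count. The lists are too short to tell the cell type from these counts. These counts show where the mark lies and do not measure expression, which was not analysed here for any guidance gene.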

How the data were processed

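H3K27me3 ChIP-seq was performed on iMEF cells in 8 libraries, 2 each untreated and at 16, 24 and 48 h of dTAG, with 4 inputs. Sample titles gave the groups, and sample records the time of treated inputs. The study's methods state that the authors used Trim Galore, BWA (mm10), samtools and Picard to obtain merged alignments, and MACS for broad peaks. The submitters' processing notes also name deepTools and DESeq2. Versions, cutoffs and how peaks were pooled over samples are not given in the sources used here. The deposited list holds chromosome, start and end of each site and no value per library (0 columns of sample values were left unused).

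Starts were read as counted from 0, since the smallest width is then 200 bp, and are printed counted from 1. TSSs and genes were those of GENCODE M21 on GRCm38. A gene was counted when any base of a site came within 1 kb of an annotated TSS, and cover was the percentage of the gene from its first to its last annotated base. CpG islands were segments scoring highest with 17 per CG and -1 per other base, of at least 200 bp, 50% GC and an observed to expected CG ratio of 0.6, in repeat-masked sequence. Calculations used Python 3.11.15 and numpy 2.4.6 and were tested on simulated intervals. The genes named one by one were those with a site at a TSS, with at least 10% cover, farthest from a site in their family, or sharing a site; the other genes without a site were named beside their families after their values were seen. The 63 genes and the lists of other guidance genes and markers were chosen with earlier results of these data known. No test was made, as the list gives no samples to compare.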

Additional observations from a re-analysis of the deposited data

How the results depend on the processing

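The number of guidance genes with a site at a TSS was 36 with a window of 500 bp, 41 with 3 kb, 37 and 31 when sites had to be at least 500 or 1000 bp wide, and 38 with protein-coding transcripts, with the most upstream TSS or with sites less than 1000 or 3000 bp apart merged. Counting sites by their centre, it was 24 (38.1%, against 18.3% of all genes), and 23 of these had a CpG island. The 14 genes lost had widest sites at a TSS of 874 bp (Ephb4) to 54070 bp (Epha8), among them Plxnd1 (1727 bp), Sema6c (2201 bp) and Unc5a (32879 bp). Under all 9 alternatives the share of guidance genes was 1.94 to 2.49 times that of all genes, and 18 of the 38 genes had a site under every alternative. Receptors minus ligands was -3.14 percentage points in the main setting, -19.5 with the centre of the site and 0.811 with the 3 kb window, so its sign depends on the setting. Cover of at least 10% was reached by 16 to 21 guidance genes, with 16 when the 1 kb around each TSS was left out. The share of all genes was not computed under these alternatives. Whether the difference in cover from all genes holds there is therefore not known. With unmasked sequence 36 guidance genes had both an island and a site.

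No paired analysis was possible because the list holds no values per library, and no replicate was left out for the same reason. The time course was not examined, and with unknown depth the absence of a site does not show absence of the mark.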

Other observations

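Plxna3, Plxnb3 and Efnb1 lie on the X chromosome and were not among the 63 genes. Plxnb3 had a site of 1294 bp at a TSS and cover of 20.9%. Plxna3 had no site within 26.5 kb of a TSS, and in Efnb1 the nearest lay 1.53 kb away, so that Efnb1, like Efnb2 and Efnb3, had none within 1 kb.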
